A study of Mus musculus with 2 samples.

Results

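The genes described here encode the splicing factors and heterogeneous nuclear ribonucleoproteins (hnRNPs) whose deposited symbols begin with Srsf and a number, Hnrnp, Hnrp, Sf3a, Sf3b, Snrp, Prpf and a number, or U2af. The names matched 66 genes, all with reads in both libraries, and 65 of them had 10 or more reads in at least 1 library, out of 12970 genes that met this minimum and 16428 with any read. Srsf12, with 6 reads in bone marrow and 7 in spleen, fell below the minimum. The 65 genes comprise 20 hnRNPs, 13 Prp proteins, 11 small nuclear ribonucleoprotein (snRNP) proteins, 10 SR proteins, 8 subunits of SF3A and SF3B, and 3 genes of the U2AF family.

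The libraries are RNA-seq of macrophages sorted from bone marrow and from spleen of mice with acute myeloid leukaemia driven by the fusion oncogene MLL-AF9, with 1 library per tissue. Recipients were C57BL/6J mice of 6 to 8 weeks that received 500000 GFP+ leukaemia cells each without irradiation. The part of the recipients' own blood-forming cells in these libraries was not tested. Both tissues were taken at day 15 of a disease with a survival of 25 to 30 days. The sources used here do not give the number of mice behind each library or the surface markers of the sort, and healthy macrophages were not analysed here.

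Splicing removes introns from newly made transcripts. The U1 particle recognises the start of an intron, U2AF and the U2 particle with its SF3A and SF3B complexes recognise its end and branch site, and a particle of U4, U5 and U6, which carries several Prp proteins, completes the catalytic machine. SR proteins mostly favour the use of nearby exons, and hnRNPs, which coat nascent RNA, often oppose them. In blood, SF3B1, SRSF2 and U2AF1 are recurrently mutated in human myeloid neoplasms.

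Effective depth after TMM scaling was 9405947 uniquely placed reads for bone marrow and 8457857 for spleen, at which the median of the 65 genes had 1593 and 1227 reads. Since each tissue has a single library, no replicate check and no test was possible: every difference is between these libraries, and 95% intervals cover counting error only. Macrophage markers were detected in both libraries, but the 14 measured ones summed to 639 CPM (reads scaled to a common TMM library size) in bone marrow against 1364 CPM in spleen, 8 of them at least 2-fold higher in spleen, with none at 0 in either. Markers of other cells also differed. The 15 measured granulocyte precursor genes summed to 48425 CPM in bone marrow against 2242 CPM in spleen, the 10 B cell genes to 460 and 4828 CPM, the 11 T cell genes to 225 and 1758 CPM, and the 9 dendritic cell genes to 205 and 967 CPM. No measured gene of these 4 lists was at 0 in either library, and Ly6g, on the granulocyte list, was counted as 0 reads in both. Of 10 progenitor and MLL-AF9 associated genes, 7 were past 2-fold towards bone marrow and 1 towards spleen (sums of 1464 and 647 CPM): Cd34 had 2420 reads in bone marrow against 52 in spleen, Meis1 480 against 52, Hoxa9 229 against 28 and Mecom 53 against 0, whereas Mef2c had 1084 against 2253. The 8 megakaryocyte genes summed to 402 CPM in bone marrow against 88.4 CPM in spleen, with 6 past 2-fold, and the 11 measured erythroid genes to 87.7 against 193 CPM. The 24 proliferation genes, among them Mki67 and Top2a, were all at least 2-fold higher in bone marrow and summed to 7458 CPM there and 2007 CPM in spleen. The part of any of these in the ratios below was not tested. In such bulk libraries fewer cells of a type and less RNA per cell cannot be told apart.

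The splicing factors and hnRNPs were abundant in both libraries. Together they took 176986 reads in bone marrow and 125489 in spleen, or 1.84% (exact binomial 95% interval 1.83 to 1.85%) and 1.52% (1.51 to 1.53%) of all reads. Their median level was 76.3 RPKM (reads scaled to gene length and library size, as deposited) in bone marrow and 65.98 RPKM in spleen, against medians of 10.7 and 11.3 RPKM over all genes with 10 or more reads in either library. In each library 62 of the 65 lay above that median. The order of levels was much alike: across the 65 genes Spearman's rho between the libraries was 0.95 on RPKM, a description over genes that share their library and gene length, and 8 genes were among the 10 highest of both.

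**Figure D1:**
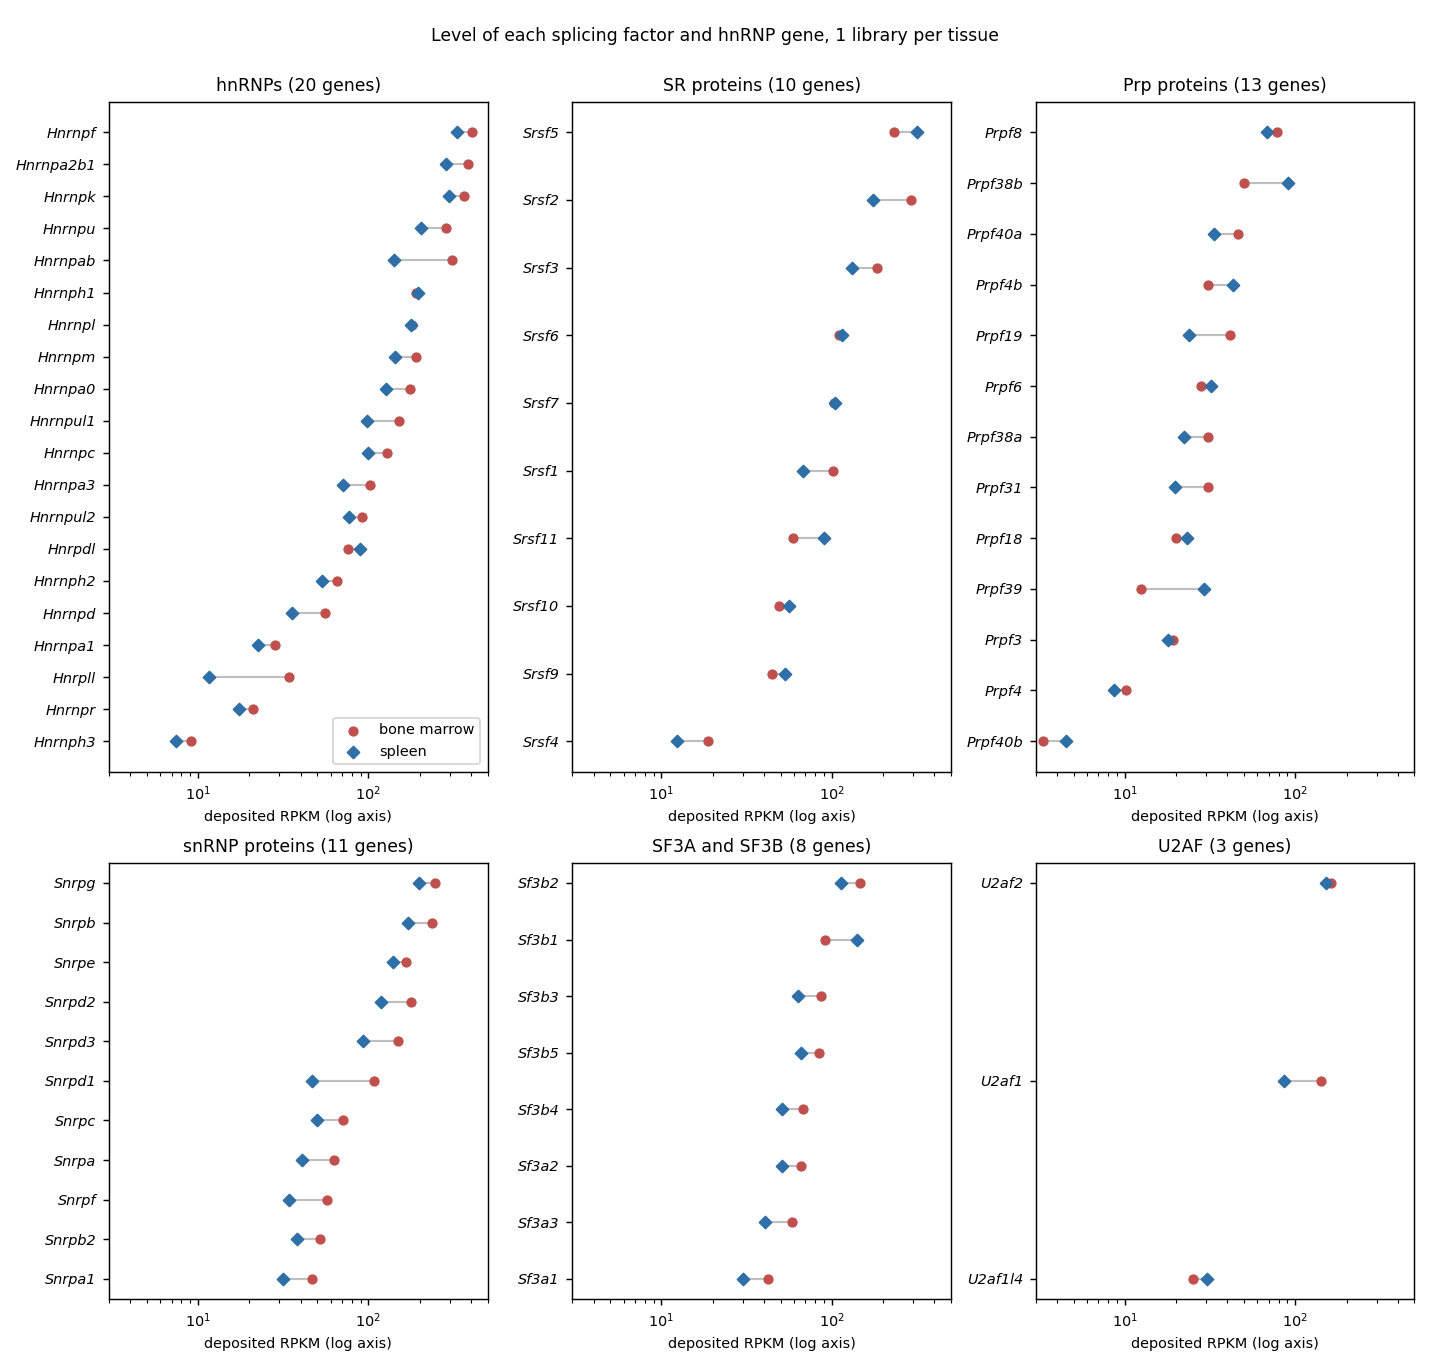
Deposited RPKM (log axis) of the 65 splicing factor and hnRNP genes in the bone marrow library (circles) and the spleen library (diamonds), by class and sorted by level; a grey line joins the values of a gene. Levels run from 3.33 RPKM for Prpf40b to 408 RPKM for Hnrnpf in bone marrow, and most circles lie to the right of their diamonds except among SR and Prp proteins.

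Between the libraries most of these genes differed little, and the differences mostly ran towards bone marrow. The ratio, bone marrow minus spleen on log2(CPM + 1), was above 0 for 52 of 65 genes and below 0 for 13. The share above 0 was 80.0%, beside 51.4% of all 12970 genes. The median ratio was 0.43 (1.35-fold), beside a median of 0.03 over all 12970 genes. On that scale 3 genes (Hnrpll, Snrpd1 and Hnrnpab) reached a 2-fold excess in bone marrow, where 14.1% of all genes did, and 1 (Prpf39) was at least 2-fold higher in spleen, where 14.6% were. The members' shares at that size, 4.62% and 1.54%, lay below those of the background. At 1.5-fold, 17 were higher in bone marrow, a share of 26.2% beside 24.7% of all genes, and 2 were higher in spleen, a share of 3.08% beside 25.1%. With library totals alone as the scaling, these counts were 14 and 4. The counting interval of the ratio lay above equal levels for 48 of 65 genes (38.2% of all genes). It lay below them for 9 (35.9% of all genes) and included them for 8. This comparison with all genes is not like for like, because counting intervals narrow as read counts rise. Median counts of the 65 genes were 1593 (bone marrow) and 1227 (spleen), beside 293 and 251 over all 12970 genes. A list of 15 housekeeping genes had a median of 0.46 towards bone marrow, close to that of the splicing genes.

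**Figure D2:**
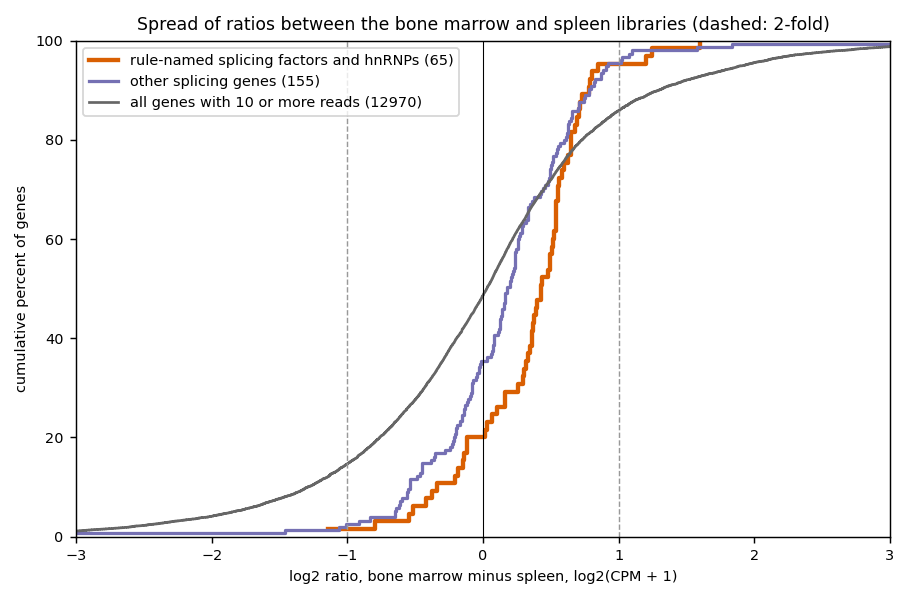
Cumulative percent of genes (vertical axis) with a log2 ratio, bone marrow minus spleen on log2(CPM + 1), up to the value on the horizontal axis, for the 65 rule-named genes, 155 other splicing genes and all 12970 genes. The curve of the 65 genes is steeper than that of all genes and lies to its right around 0, with a median of 0.43 against 0.03; dashed lines mark 2-fold.

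The snRNP proteins ran one way. All 11 had a ratio above 0, as 51.4% of all genes did, with a median of 0.63. For 6 the excess in bone marrow was at least 1.5-fold (54.5%, beside 24.7% of all genes). Of these 11, 7 belong to the ring of Sm proteins that encircles the U1, U2, U4 and U5 RNAs. Snrpd1, which encodes the Sm D1 protein, was at 108 RPKM in bone marrow and 47.0 RPKM in spleen, a 2.41-fold difference in CPM (2.12 to 2.75). It stood apart from its ring partners: Snrpd2 was at 179 and 119 RPKM (1.57-fold, 1.41 to 1.76), and Snrpd3 at 149 and 93.6 RPKM (1.67-fold, 1.49 to 1.87). The ratio of Snrpd1 to Snrpd2 reads was 1.53 times as large in bone marrow as in spleen, with an exact interval of 1.29 to 1.82 that no scaling of the libraries can alter.

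The other ring members differed less. Snrpf was 1.75-fold as high in bone marrow as in spleen (1.498 to 2.05), but 32.8% of its length was covered by reads there and 38.3% in spleen. Snrpb, the main B subunit, was at 236 RPKM in bone marrow and 170.0 RPKM in spleen. Snrpg and Snrpe had the smallest ratios of the class, at 1.30-fold (1.18 to 1.44) and 1.24-fold (1.11 to 1.38), and Snrpg had the highest level of the ring, at 247 and 199 RPKM. Proteins specific to the U1 particle, Snrpa and Snrpc, were at 62.7 and 70.8 RPKM in bone marrow and at 40.8 and 49.96 RPKM in spleen. Those of the U2 particle, Snrpa1 and Snrpb2, were at 47.0 and 51.9 RPKM in bone marrow and at 31.6 and 38.1 RPKM in spleen. These 4 genes were 1.43-fold to 1.61-fold higher in bone marrow.

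Among the factors that recognise the end of the intron, U2af1 and Sf3b1 moved in opposite directions. U2af1, whose protein reads the last bases of the intron, was at 142 RPKM in bone marrow and 85.9 RPKM in spleen (1.73-fold, 1.57 to 1.90). Its partner U2af2, which binds the pyrimidine tract, was nearly level at 161 and 151 RPKM (1.12-fold, 1.06 to 1.18). U2af1l4, a relative of U2af1, was at 25.0 RPKM in bone marrow and 30.4 RPKM in spleen, with an interval of its ratio (0.709 to 1.05, bone marrow over spleen) that included equal levels. The ratio of U2af1l4 to U2af1 reads was 2.004 times as large in spleen (1.61 to 2.49).

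SF3A and SF3B are the parts of the U2 particle that hold the branch site. Of their 8 genes, 7 (87.5%, beside 51.4% of all genes) had a ratio above 0, in the narrow range of 0.40 to 0.60. Sf3a3 was the highest of them at 1.52-fold towards bone marrow (1.37 to 1.69), and Sf3b5 the lowest at 1.33-fold (1.17 to 1.51). Sf3b1, the largest subunit, which grips the branch site, was the exception. It had 5463 reads in bone marrow against 7187 in spleen, or 91.7 and 140 RPKM, and was 1.46-fold higher in spleen (1.41 to 1.52). Relative to the scaffold subunit Sf3b3, Sf3b1 reads were 2.10 times as frequent in spleen as in bone marrow (1.97 to 2.24), and relative to Sf3b2, Sf3b4 and Sf3b5 they were 1.98 (1.87 to 2.10), 2.04 (1.85 to 2.26) and 1.94 (1.70 to 2.22) times as frequent. In bone marrow Sf3b2 was the most abundant subunit per length, at 146 RPKM against 91.7 RPKM for Sf3b1, while in spleen Sf3b1 was, at 140 RPKM against 113 RPKM for Sf3b2. By the current RefSeq symbol the rule would also take Sf3b6, whose row carries an older name.

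**Figure D3:**
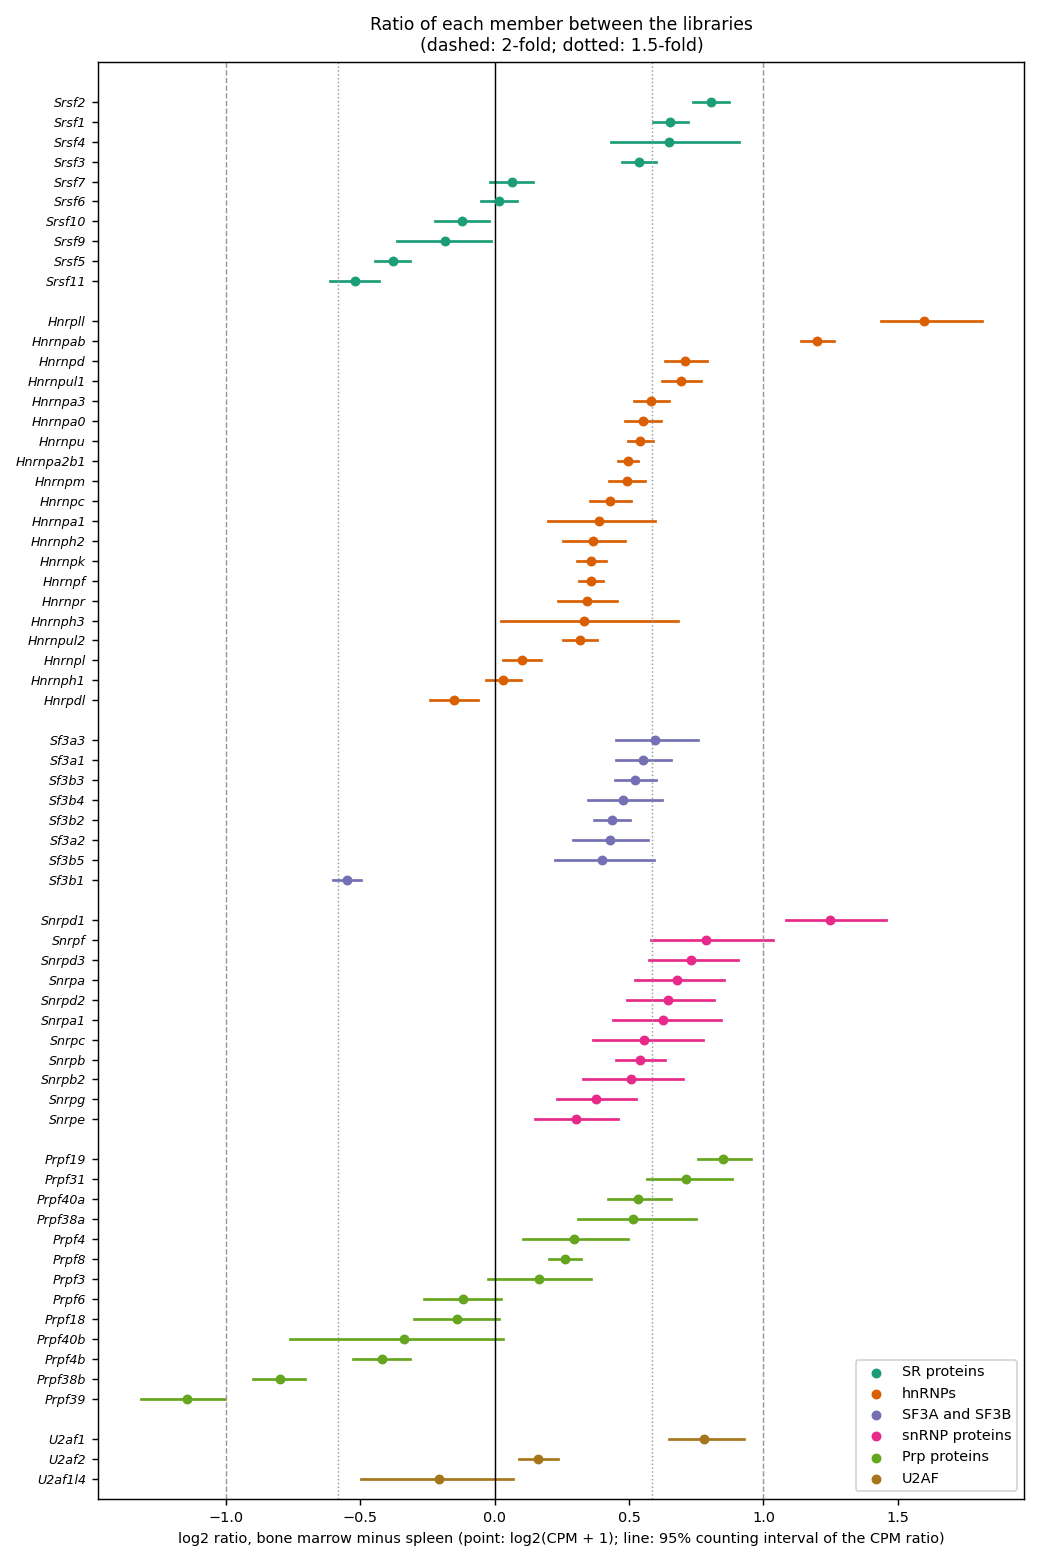
Log2 ratio of each of the 65 genes, bone marrow minus spleen (points, log2(CPM + 1)), with the 95% counting interval of the CPM ratio (lines), by class; dashed lines mark 2-fold and dotted lines 1.5-fold. All 11 snRNP proteins and 19 of 20 hnRNPs lie right of 0, Sf3b1 lies apart from the other 7 subunits of its class, and the SR and Prp proteins spread to both sides.

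SR proteins divided. Of 10, 3 (Srsf1, Srsf2 and Srsf4) reached 1.5-fold towards bone marrow and 0 towards spleen. These shares were 30.0% and 0%, beside 24.7% and 25.1% of all genes. Ratios ran from -0.52 to 0.80 with a median of 0.04, which was -0.03 with library totals alone or the deposited RPKM. Srsf2, an exon enhancer-binding protein, was at 291 RPKM in bone marrow and 174 RPKM in spleen (1.75-fold, 1.67 to 1.83). Srsf1, the founding member of the family, was at 101 and 67.4 RPKM (1.57-fold, 1.505 to 1.64), and Srsf3 at 183 and 132 RPKM (1.45-fold, 1.39 to 1.52). Srsf6 and Srsf7 were level, at 111 and 104 RPKM in bone marrow and at 115 and 104 RPKM in spleen, with counting intervals that included equal levels.

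The SR proteins on the other side were Srsf5, Srsf9, Srsf10 and Srsf11. Srsf5 was at 231 RPKM in bone marrow and 315 RPKM in spleen, where it was the second most abundant of the 65 genes, behind Hnrnpf (1.30-fold higher in spleen, 1.25 to 1.36). Srsf11 was at 59.6 RPKM in bone marrow and 89.6 RPKM in spleen (1.44-fold higher in spleen, 1.35 to 1.53). In the balance of Srsf11 to Srsf1 reads the libraries differed 2.26-fold (2.09 to 2.44), with the larger ratio in spleen. The balance of Srsf1 to Srsf9, its nearest relative, was 1.79 times as large in bone marrow (1.57 to 2.04).

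The hnRNPs were the largest class and took the most reads, 53.8% of those of the 65 genes in bone marrow and 49.1% in spleen. Of 20, 19 had a ratio above 0, as 51.4% of all genes did, with a median of 0.41. At 1.5-fold, 4 (Hnrpll, Hnrnpab, Hnrnpd and Hnrnpul1) were higher in bone marrow, a smaller share than the 24.7% of all genes. Towards spleen 0 reached this size, beside 25.1% of all genes. Hnrpll (Hnrnpll in RefSeq), which represses exons of the Cd45 transcript in lymphocytes, had the largest ratio of all 65 genes. It had 1032 reads in bone marrow against 301 in spleen, or 34.4 and 11.7 RPKM, a 3.08-fold difference (2.71 to 3.52). Its paralogue Hnrnpl, which binds CA-rich RNA, was nearly level at 181 and 177 RPKM, so the ratio of Hnrpll to Hnrnpl reads was 2.87 times as large in bone marrow (2.50 to 3.31).

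Hnrnpab, whose protein binds AU-rich and other single-stranded sequences, was at 309 RPKM in bone marrow and 141 RPKM in spleen (2.30-fold, 2.20 to 2.4001). By RPKM it ranked 4 among the 65 genes in bone marrow and 13 in spleen. Its relatives differed less. Hnrnpd, the AU-rich element-binding AUF1, was at 55.5 and 35.5 RPKM (1.64-fold, 1.55 to 1.73), whereas Hnrpdl (Hnrnpdl in RefSeq) was at 76.3 RPKM in bone marrow and 88.7 RPKM in spleen and was the one hnRNP with a ratio below 0 (0.90-fold, bone marrow over spleen, 0.85 to 0.96).

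The most abundant hnRNPs differed by smaller amounts. Hnrnpf, a binder of G runs, headed the 65 genes in both libraries, at ranks 152 and 150 among all genes, at 408 RPKM in bone marrow and 333 RPKM in spleen (1.28-fold, 1.24 to 1.32). Hnrnpa2b1 had the most reads, 15182 in bone marrow against 9683 in spleen, and was at 386 and 287 RPKM (1.41-fold, 1.37 to 1.45). Hnrnpk, a poly-C binding protein, was at 365 and 298 RPKM (1.28-fold, 1.24 to 1.33), and Hnrnpu, a nuclear scaffold protein, at 284 and 204 RPKM (1.46-fold, 1.41 to 1.503). Hnrnph1, the close relative of Hnrnpf, was level at 191 and 196 RPKM, with an interval of 0.977 to 1.07. Hnrnpc, which binds U tracts, and Hnrnpm were at 129 and 192 RPKM in bone marrow and at 100.1 and 143 RPKM in spleen. Hnrnpul1 was at 151 and 97.8 RPKM (1.62-fold, 1.54 to 1.70).

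Hnrnpa1 had 520 reads in bone marrow against 355 in spleen, far fewer than Hnrnpa2b1, and 27.8% and 26.9% of its length was covered. Processed pseudogenes near-identical to Hnrnpa1 are common in mammalian genomes, and uniquely placed reads cannot be assigned where copies are identical. Its level of 28.2 and 22.4 RPKM is therefore uncertain, and the part of such copies was not tested. The other genes with under 50% of their length covered in bone marrow were Snrpf, Srsf4, Hnrnph3 and Hnrnpr, and the reason for their low coverage was not tested. At least 90% of the length was covered in 50 of the 65 genes in bone marrow and in 48 in spleen. Without these 5 genes the median ratio of the remaining 60 was 0.43 and that of the hnRNPs 0.49.

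**Figure D4:**
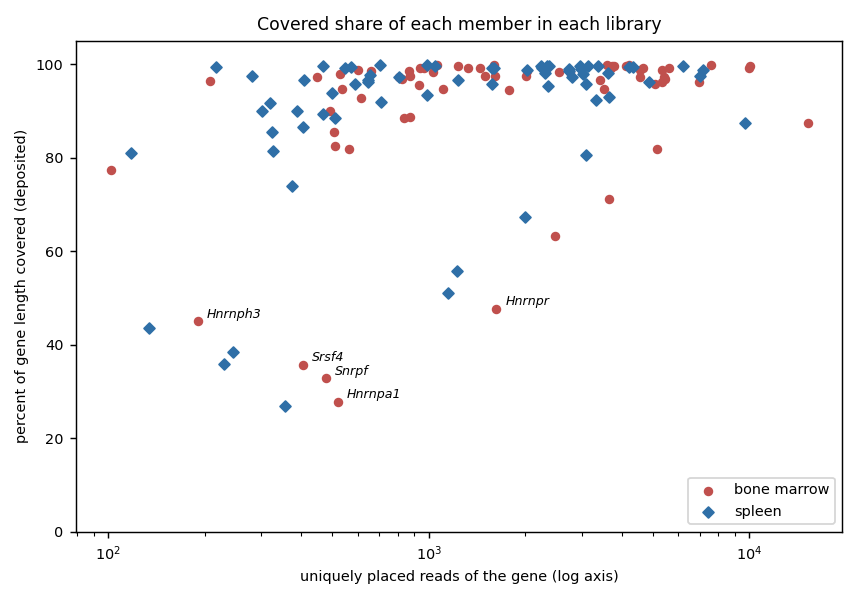
Percent of gene length covered by reads (deposited) against uniquely placed reads (log axis) for the 65 genes in the bone marrow library (circles) and the spleen library (diamonds). Labels name the 5 genes under 50% in bone marrow; Hnrnpa1 is lowest, at 27.8% with 520 reads.

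The Prp proteins had the widest spread of the classes, though narrower than that of all genes (interquartile ranges of 0.85 and 1.17). Of 13, 7 had a ratio above 0 and 6 below, 2 reached 1.5-fold towards bone marrow and 2 towards spleen, and ratios ran from -1.14 to 0.85. Prpf19, the ubiquitin ligase at the core of the complex named after it, was at 41.2 RPKM in bone marrow and 23.9 RPKM in spleen (1.81-fold, 1.69 to 1.94), with 63.2% and 55.7% of its length covered. Prpf31, which joins U4/U6 to U5, was at 30.9 and 19.6 RPKM (1.65-fold, 1.48 to 1.84). Prpf8, the scaffold of the catalytic centre, was at 77.8 and 68.0 RPKM (1.199-fold, 1.15 to 1.25).

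Prpf39, known as a U1-associated factor, had the lowest ratio of the 65 genes. It had 493 reads in bone marrow against 990 in spleen, or 12.5 and 29.2 RPKM, and was 2.23-fold higher in spleen (2.0025 to 2.49). Prpf38b was at 49.8 RPKM in bone marrow and 91.0 RPKM in spleen (1.74-fold higher in spleen, 1.63 to 1.87). Its paralogue Prpf38a went the other way, at 30.7 and 22.3 RPKM (1.44-fold, 1.24 to 1.68), and the ratio of Prpf38b to Prpf38a reads was 2.52 times as large in spleen (2.13 to 2.97). Prpf4b, a kinase of the spliceosome, was at 30.8 RPKM in bone marrow and 43.2 RPKM in spleen (1.34-fold higher in spleen, 1.24 to 1.44). Prpf40b was the least abundant of the 65 genes, with 102 reads in bone marrow against 118 in spleen, and its interval included equal levels. The gene pairs compared in these paragraphs were chosen after their values had been seen.

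The promoters of these genes were looked up as a description, and the part of any motif in the ratios was not tested. RefSeq (GRCm38.p6) gave windows of 300 bases, 250 before and 50 after the start, for 56 of the 65 genes (74 windows), to be set beside 32851 windows of all genes. In 64 of the 74 windows the last bases were found near the start of a GENCODE transcript of the same gene, and some genes had several windows that overlap. Motifs were therefore counted once per gene, as exact letters on either strand in any window, over 56 genes and over 27025 genes in all. These 27025 are all genes with a window, with or without reads here. They are not the 12970 genes that serve as background for the ratios, so unread genes enter these shares. The ETS-type motif CCGGAAG was found for 33.9% of these genes and 9.93% of all genes, the E-box CACGTG for 16.1% and 8.09%, CCAAT for 51.8% and 41.1%, the NRF1-type core GCATGCGC for 7.14% and 3.05%, and TATAAA for 10.7% and 15.7%. Windows of these genes also held more G and C (62.2% against 53.8%) and more CG pairs (27.7 against 12.4 per window). A match describes letters, not binding. The 100 bases before the start are shown for Hnrnpab and Srsf2, higher in bone marrow, for Prpf39 and Prpf38b, the pair at least 1.5-fold higher in spleen, and for Srsf5, with 2 ETS-type matches; capitals mark any of the motifs on either strand.
Hnrnpab (chr11:51606882-51606981, minus strand): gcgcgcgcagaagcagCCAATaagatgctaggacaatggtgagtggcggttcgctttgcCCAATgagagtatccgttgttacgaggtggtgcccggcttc
Srsf2 (chr11:116853095-116853194, minus strand): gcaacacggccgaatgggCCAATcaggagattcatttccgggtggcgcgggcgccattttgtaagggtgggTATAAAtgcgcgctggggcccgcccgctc
Prpf39 (chr12:65036234-65036333, plus strand): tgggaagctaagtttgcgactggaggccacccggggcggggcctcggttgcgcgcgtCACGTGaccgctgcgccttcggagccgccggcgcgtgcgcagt
Prpf38b (chr3:108911730-108911829, minus strand): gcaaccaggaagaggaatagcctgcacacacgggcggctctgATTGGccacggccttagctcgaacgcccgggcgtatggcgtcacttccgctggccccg
Srsf5 (chr12:80945399-80945498, plus strand): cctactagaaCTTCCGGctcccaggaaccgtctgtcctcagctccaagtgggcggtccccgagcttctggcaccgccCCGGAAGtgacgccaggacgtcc

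The other genes of splicing, 155 measured in 9 lists, had a median ratio of 0.18 and were less shifted than the 65 genes, with 7 at least 2-fold higher in bone marrow and 4 in spleen (4.52% and 2.58%, beside 14.1% and 14.6% of all genes). The lists nearest to the snRNP proteins were those of snRNP building. The 10 Lsm genes had a median of 0.61. Lsm2 to Lsm8, whose proteins form the ring of U6, had ratios from 0.27 for Lsm4 to 1.10 for Lsm2, while Lsm1 of a cytoplasmic ring was at -0.21, and Lsm10 and Lsm11 of the U7 ring at -0.13 and 0.08. Lsm2 was at 51.2 CPM in bone marrow against 23.4 CPM in spleen. The SMN complex and its partners, which load Sm proteins onto RNA, had a median of 0.65 with 9 of 16 at least 1.5-fold higher in bone marrow (56.3%, beside 24.7% of all genes) and 1, Snupn, in spleen. Among them Gemin6 and Gemin8 had 125 and 135 reads in bone marrow, against 51 and 53 in spleen, ratios of 2.20-fold and 2.29-fold. Smn1 itself was at 1.65-fold towards bone marrow (1.41 to 1.95), and Prmt5, the enzyme that methylates Sm proteins, 1.70-fold (1.52 to 1.89). On the other side, Snupn, the import adaptor of snRNPs, had 55 reads in bone marrow against 79 in spleen (1.60-fold higher in spleen), and Gemin7 had 258 against 323 (1.39-fold higher in spleen). Exon junction complex genes had a median of 0.56, with the export adaptor Alyref at 1.91-fold (1.71 to 2.13) and the core gene Magoh at 1.86-fold (1.61 to 2.15). Casc3 and Pym1 of the same list were 1.46-fold and 1.55-fold higher in spleen.

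SR-related proteins and the kinases that phosphorylate SR proteins were mixed, with 10 ratios above 0 (41.7%, beside 51.4% of all genes), 14 below and a median of -0.12. Of these 24 genes, 3 were at least 2-fold (12.5%, beside 14.6% of all genes) and 6 at least 1.5-fold higher in spleen (25.0%, beside 25.1%), shares close to the background, and 0 reached 1.5-fold towards bone marrow (24.7% of all genes). The highest towards bone marrow were Rnps1 at 1.47-fold (1.36 to 1.59), Tra2b, an SR-like exon activator, at 1.40-fold (1.32 to 1.49) and Tnpo3, which imports SR proteins into the nucleus, at 1.34-fold (1.24 to 1.46). Clk1 was at 112 CPM in bone marrow against 308 CPM in spleen (2.76-fold higher in spleen), and Clk4 at 51.0 and 97.3 CPM (1.91-fold higher in spleen). Srrm2, a very large scaffold of nuclear speckles, was at 637 and 1334 CPM (2.09-fold higher in spleen). Srpk3 had 48 reads in bone marrow against 556 in spleen (12.9-fold higher in spleen), whereas its relatives Srpk1 and Srpk2 lay within 1.5-fold. Of the 4 measured nuclear-retained RNAs, Malat1, Neat1 and Kcnq1ot1 were at 349, 164 and 45.8 CPM in bone marrow, against 816, 448 and 163 CPM in spleen, and Meg3 had 24 and 4 reads. The first 3 were higher in spleen, as Clk1, Srrm2, Prpf39 and Sf3b1 were, and the part of nuclear RNA content in those ratios was not tested.

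Of the remaining lists, U1 and U5 proteins outside the name rule had a median of -0.08. Snrnp70 was nearly level at 0.94-fold (0.89 to 0.99, bone marrow over spleen) and Snrnp200 was at 1.05-fold (0.997 to 1.11). The Prpf19-containing complex and its activated spliceosome partners had a median of 0.16, the U4/U6 and minor spliceosome list 0.15, and U2 and branch site proteins 0.17, with Zrsr1, a U2af1-like gene, at 13.9 CPM in bone marrow against 29.1 CPM in spleen. Other RNA-binding regulators had a median of 0.22, with 3 of 38 at least 2-fold higher in bone marrow and 0 in spleen (7.89% and 0%, below the 14.1% and 14.6% of all genes). Mbnl3 was at 132 CPM in bone marrow against 36.3 CPM in spleen (3.65-fold, 3.22 to 4.15), while Mbnl1 was 1.48-fold higher in spleen. On log2(CPM + 1) the other genes past 2-fold were Khdrbs3 (3.07) and Rbfox2 (1.58). Khdrbs3 had 88 reads in bone marrow against 2 in spleen (CPM ratio 39.6-fold, 10.6 to 332). Rbfox2 had 22 against 1 (19.8-fold, 3.20 to 816). Rbm24, with 10 against 1 (8.99-fold, 1.28 to 390), was at 0.88 on the log2 scale. These genes met the minimum of 10 reads through bone marrow alone. Ptbp1, the polypyrimidine tract-binding hnRNP I, was at 742 and 417 CPM (1.78-fold, 1.71 to 1.85), and its paralogue Ptbp2 was 1.498-fold higher in spleen.

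**Figure D5:**
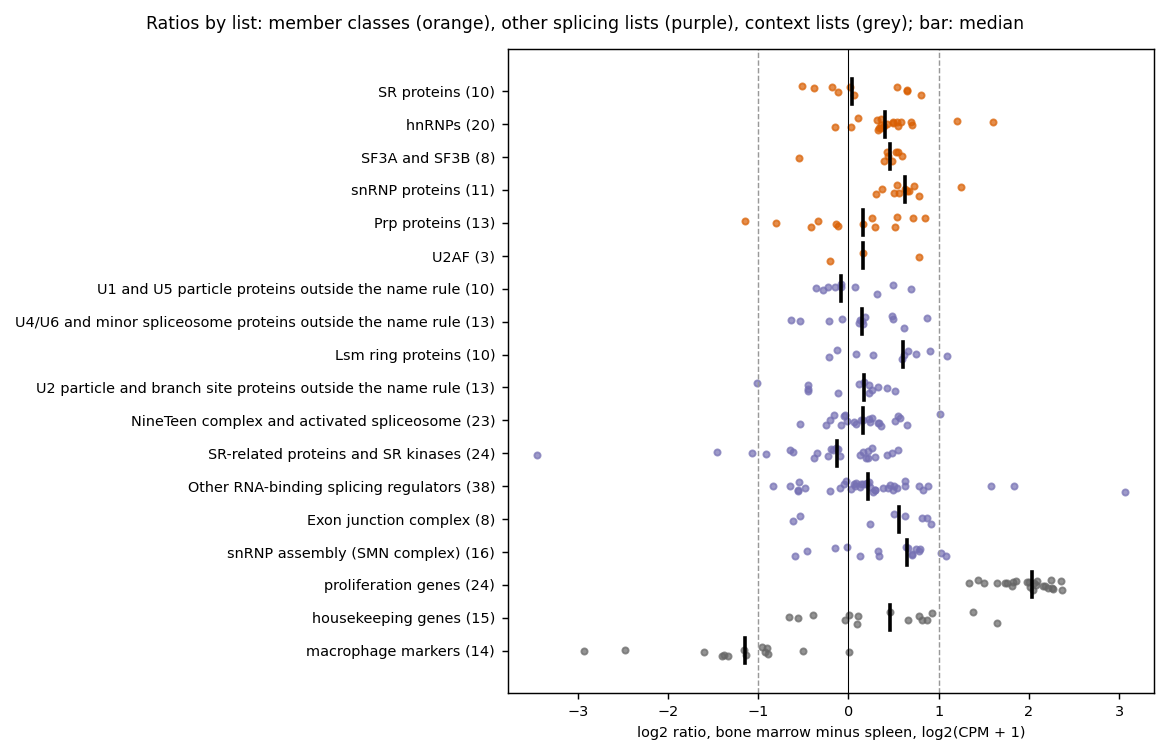
Log2 ratio, bone marrow minus spleen on log2(CPM + 1), of each measured gene (points) and the median (bar) for the 6 classes of rule-named genes (orange), 9 lists of other splicing genes (purple) and 3 context lists (grey). Medians run from -0.12 for SR-related proteins and kinases to 0.65 for snRNP assembly among the splicing lists, beside 2.03 for proliferation genes, 0.46 for housekeeping genes and -1.14 for macrophage markers.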

How the data were processed

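The authors deposited 1 table per library that holds, per the file headers, a count of uniquely placed reads for every gene, its length, the covered percent of that length and its RPKM. Aligner, counting program and build were not given in the sources used here. Genes were joined on Entrez identifiers, and an absent gene was given 0 reads. RefSeq (GRCm38.p6) names matched 16379 identifiers. Counts were scaled to CPM with TMM factors from edgeR 4.0.16 (0.977 for bone marrow, 1.02 for spleen), and log2(CPM + 1) in spleen was subtracted from that in bone marrow, a scale that understates changes of low genes. Intervals are exact conditional binomial (Clopper-Pearson) 95% intervals, and intervals of gene pairs exact conditional odds-ratio intervals. Both cover counting error only, and reads amplified by PCR without molecular identifiers do not count independent molecules. With 1 library per tissue no p-value was computed. The calculation was first run on simulated counts with counting error only, scaled by library totals. That run checked the arithmetic, and could not check TMM scaling or variation between animals. The members and lists were chosen with earlier results of these data known. Genes named were those past 2-fold, the 8 largest ratios each way with 100 or more reads, the 10 highest levels, known splicing anchors, and further members shown for their class. Of the splicing lists, not every gene that this rule takes is reported. Genes sharing sequence with copies are uncertain. As alternatives, scaling used DESeq2 1.42.0 size factors, totals of each library or the deposited RPKM, and settings used pseudocounts of 0.1 and 5, no read minimum, a minimum of 100 reads, current RefSeq symbols and, chosen after seeing the data, leaving out members under 50% covered.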

Additional observations from a re-analysis of the deposited data

How the results depend on the processing

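The counts of members at least 2-fold higher, 3 in bone marrow and 1 in spleen, were the same under each alternative tried, and the members' median ratio lay between 0.36 and 0.44. The count at least 1.5-fold higher in bone marrow ran from 12 with the deposited RPKM to 18 with DESeq2 size factors, and the count for spleen was 4 with library totals alone. Without members under 50% covered, the hnRNP median was 0.49. Among other splicing genes, counts near 2-fold were the least stable. With library totals alone the Prpf19 complex list had 0 genes and the SMN list 1 gene at least 2-fold higher in bone marrow, and the median of other RNA-binding regulators was 0.15. With the deposited RPKM these were 0, 0 and 0.15, the U2 list had 0 genes 2-fold higher in spleen, and all other splicing genes had 3 higher in bone marrow. With a pseudocount of 5 the Lsm, Prpf19 complex and SMN lists had 0 higher in bone marrow, the U2 list 0 higher in spleen, and all other splicing genes 2 higher in bone marrow. With a minimum of 100 reads, which leaves fewer genes, other RNA-binding regulators had 1. No paired analysis was possible because each tissue has 1 library.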
